A study of Mus musculus with 9 samples.

Results

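The genes described here are 36 genes of the cell cycle, 28 that act in mitosis and 8 that act in DNA replication. They were taken by gene symbol from a list that was drawn up with earlier results of these data known, and all 36 were measured, among 22061 genes in all. Of the 42 probe sets that read these genes, the brightest on average stands for each gene. The tissue was the right ventricle of the heart, from male mice, and each of 9 RNA samples was hybridised to 1 Affymetrix array. Of these, 3 came from mice labelled LRAT -/- on a vitamin A deficient diet (deficient arrays below), 3 from mice labelled LRAT -/- on a vitamin A sufficient diet (sufficient LRAT -/- arrays) and 3 from wild-type mice on the sufficient diet (wild-type arrays). The diets were given for 50 days and differed in 250000 U/kg of retinol palmitate, which the sufficient diet held. Lrat is the enzyme that esterifies retinol for storage. No wild-type mice on the deficient diet are among the samples, and the age and strain of the mice are not given in the sources used here. No label says that the 3 samples of a group are separate animals, so the p-values cover the spread among the arrays of a group, and how much of it is technical is not known.

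The genes follow the order of the cell cycle. In S phase the MCM helicase opens the DNA at replication origins, the sliding clamp Pcna tethers the polymerases, and ribonucleotide reductase and thymidylate synthase supply deoxynucleotides. In mitosis cyclin B and Cdk1 drive entry, Aurora and Polo-like kinases and kinesins build the spindle, the spindle checkpoint holds anaphase until chromosomes are attached, and the anaphase-promoting complex ends it. In the adult mouse heart most cardiomyocytes have left the cell cycle, and most dividing cells are endothelial cells, fibroblasts and leukocytes. In bulk tissue, fewer cells of a type and less RNA per cell cannot be told apart.

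The promoters of these genes hold short elements known to time their transcription, and 4 are shown because their genes were among those with the lowest unadjusted p-values in a comparison. Each line gives the 200 bases before the annotated start, from RefSeq on GRCm38.p6, 5′ to 3′ on the gene's strand. Capitals mark matches to the NF-Y box (CCAAT), to the cell cycle homology region or CHR (TTTGAA or TTCGAA) and to the E2F site (TTTCCCGC, TTTCGCGC, TTTGCCGC or TTTGGCGC), on either strand. Neighbouring matches can overlap, as in Ube2c and Mcm6. Mki67 lies on chr7:135716380-135716579 (minus strand), Ube2c on chr2:164769729-164769928 (plus strand), Prc1 on chr7:80294276-80294475 (plus strand) and Mcm6 on chr1:128359706-128359905 (minus strand).
Mki67: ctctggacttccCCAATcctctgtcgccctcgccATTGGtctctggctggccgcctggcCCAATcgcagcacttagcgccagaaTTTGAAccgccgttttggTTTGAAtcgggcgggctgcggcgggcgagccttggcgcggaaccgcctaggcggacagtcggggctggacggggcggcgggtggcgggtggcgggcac
Ube2c: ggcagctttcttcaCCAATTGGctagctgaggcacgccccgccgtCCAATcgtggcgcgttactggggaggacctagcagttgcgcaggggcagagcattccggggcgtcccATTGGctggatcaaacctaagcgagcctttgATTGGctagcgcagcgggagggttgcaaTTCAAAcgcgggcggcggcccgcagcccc
Prc1: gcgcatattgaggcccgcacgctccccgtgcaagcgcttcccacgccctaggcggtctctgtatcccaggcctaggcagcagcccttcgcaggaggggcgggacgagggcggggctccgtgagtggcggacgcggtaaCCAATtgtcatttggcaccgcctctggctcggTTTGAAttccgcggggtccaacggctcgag
Mcm6: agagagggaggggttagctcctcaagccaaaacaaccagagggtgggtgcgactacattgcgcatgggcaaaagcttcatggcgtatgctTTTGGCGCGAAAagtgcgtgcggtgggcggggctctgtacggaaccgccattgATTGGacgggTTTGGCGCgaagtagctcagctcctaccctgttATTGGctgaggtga

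The shown stretch of Mki67 holds 3 NF-Y boxes and 2 CHR matches, that of Ube2c 5 and 1, and that of Prc1 1 and 1. Mcm6 holds 2 NF-Y boxes and 3 E2F matches and no CHR match. Promoters of 31 of the 36 genes were in the table, searched from 250 bases before to 50 bases after the start. A CHR match was present in 18 of 24 mitotic genes and in 1 of 7 replication genes, Mcm2, against 21.7% of all 27025 genes in the table. An E2F match was present in 1 of 24 mitotic genes, Cdk1, and in 3 of 7 replication genes, Mcm3, Mcm5 and Mcm6, against 2.60% of all genes. NF-Y boxes were found in 18 of 24 mitotic genes and in 6 of 7 replication genes, against 41.1% of all genes. No match was found in Birc5, Melk, Nuf2, Nusap1 and Tyms. The matches are letters in a window, not measured binding, and the promoters of Aurkb, Ccna2, Kif20a, Mcm4 and Tpx2 were not analysed here.

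**Figure D1:**
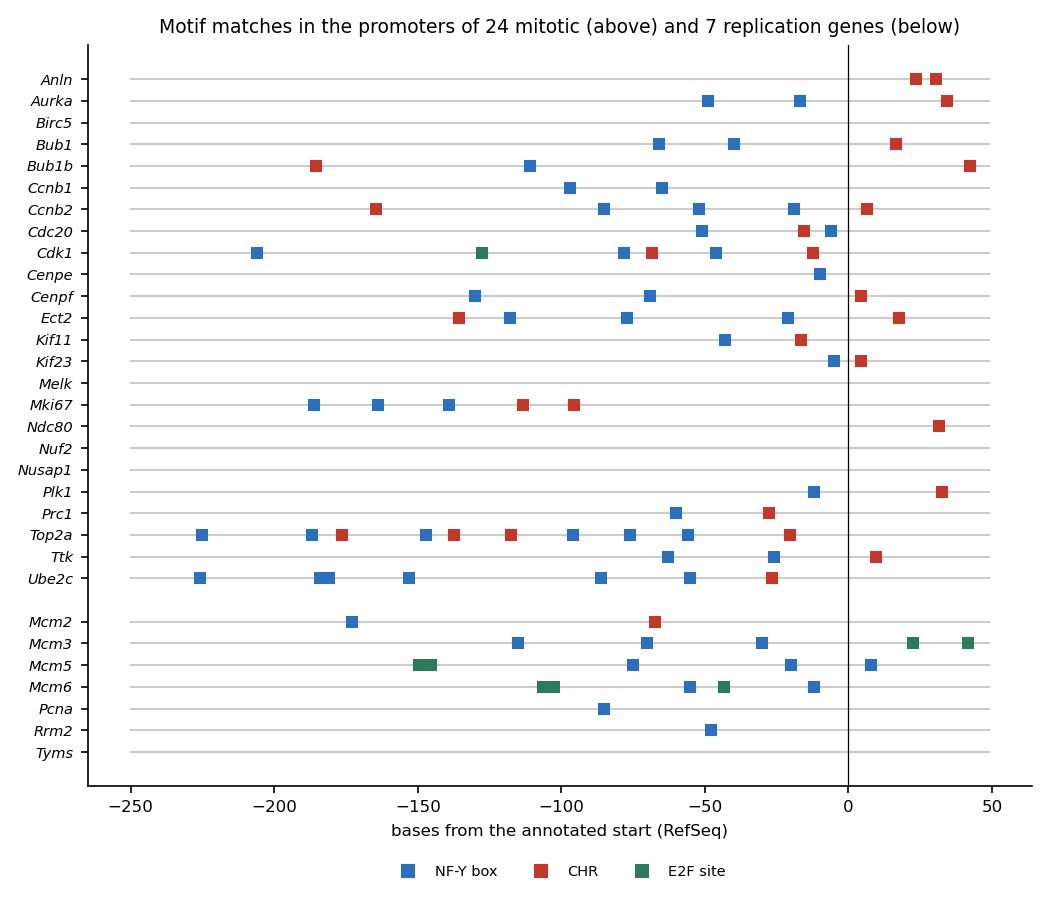
Positions of NF-Y box, CHR and E2F matches (squares) in the promoters of 24 mitotic and 7 replication genes, in bases from the most downstream annotated start (x axis). CHR matches lie mostly in the mitotic genes and E2F matches in Mcm3, Mcm5, Mcm6 and Cdk1.

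The arrays as a whole resembled each other, with r between 0.987 and 0.998 across genes for any pair of arrays. The arrays numbered 3 stood apart from numbers 1 and 2 in every group on the first principal component (28.4% of the variance). The Lrat probe set went against the labels: its log2 signal was 7.58, 7.69 and 7.81 in deficient arrays, 7.88, 7.64 and 8.09 in sufficient LRAT -/- arrays and 6.35, 6.24 and 6.43 in wild-type arrays. Whether this probe set lies in the deleted part of the gene is not known here, and each genotype direction below rests on the labels. The 9 cardiomyocyte markers had a median log2 signal of 13.88 over the arrays and none was below the median of the negative controls. The summed linear signal of 3 atrial markers was 419 to 777 in deficient arrays, 385 to 499 in sufficient LRAT -/- arrays and 410 to 429 in wild-type arrays. All 3 atrial markers were higher in the combined comparison, with a median of 0.30 and none at an unadjusted p under 0.05.

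Most of the mitotic genes were dim in the right ventricle. Over the 9 arrays the mean log2 RMA signal of the 28 mitotic genes ran from 4.87 to 7.13, with a median of 5.93, against a median of 7.19 for all genes. The 5222 probe sets annotated as negative controls were used as background, and their median lay between 5.29 and 5.69 log2 in the 9 arrays. Their 95th percentile lay between 8.09 and 8.54, above the median of all genes in each array. These controls are therefore not a uniform floor. Of the mitotic genes, 18 (64.3%) exceeded that median in every array, against 77.2% of all genes, and 5 mitotic genes did so in no array. Above the 75th percentile of the controls in every array were 4 mitotic genes (14.3%), against 55.1% of all genes. These were Ccnb2, a B-type cyclin, Aurkb, the kinase of the chromosomal passenger complex, Cdc20, the activator of the anaphase-promoting complex, and Aurka, the spindle pole kinase. The 5 genes below the median in every array were Ccnb1, Cenpe, Ttk, Nuf2 and Bub1. These 5 genes could not be told from the controls by level, which does not show that they were absent. Above the 95th percentile of the controls in every array were 0 of 28 mitotic genes, against 24.9% of all genes. Nuf2, a subunit of the Ndc80 complex at kinetochores, had 4.88, 4.88 and 5.08 in deficient arrays, 4.82, 4.96 and 4.90 in sufficient LRAT -/- arrays and 4.86, 4.81 and 5.15 in wild-type arrays.

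Replication genes were brighter. All 8 exceeded the median of the controls in every array and 5 exceeded the 75th percentile in every array. Only Pcna exceeded the 95th percentile in every array, as did 24.9% of all genes. Probe sets differ in response, so these signals place each gene against background and do not rank transcripts between genes.

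**Figure D2:**
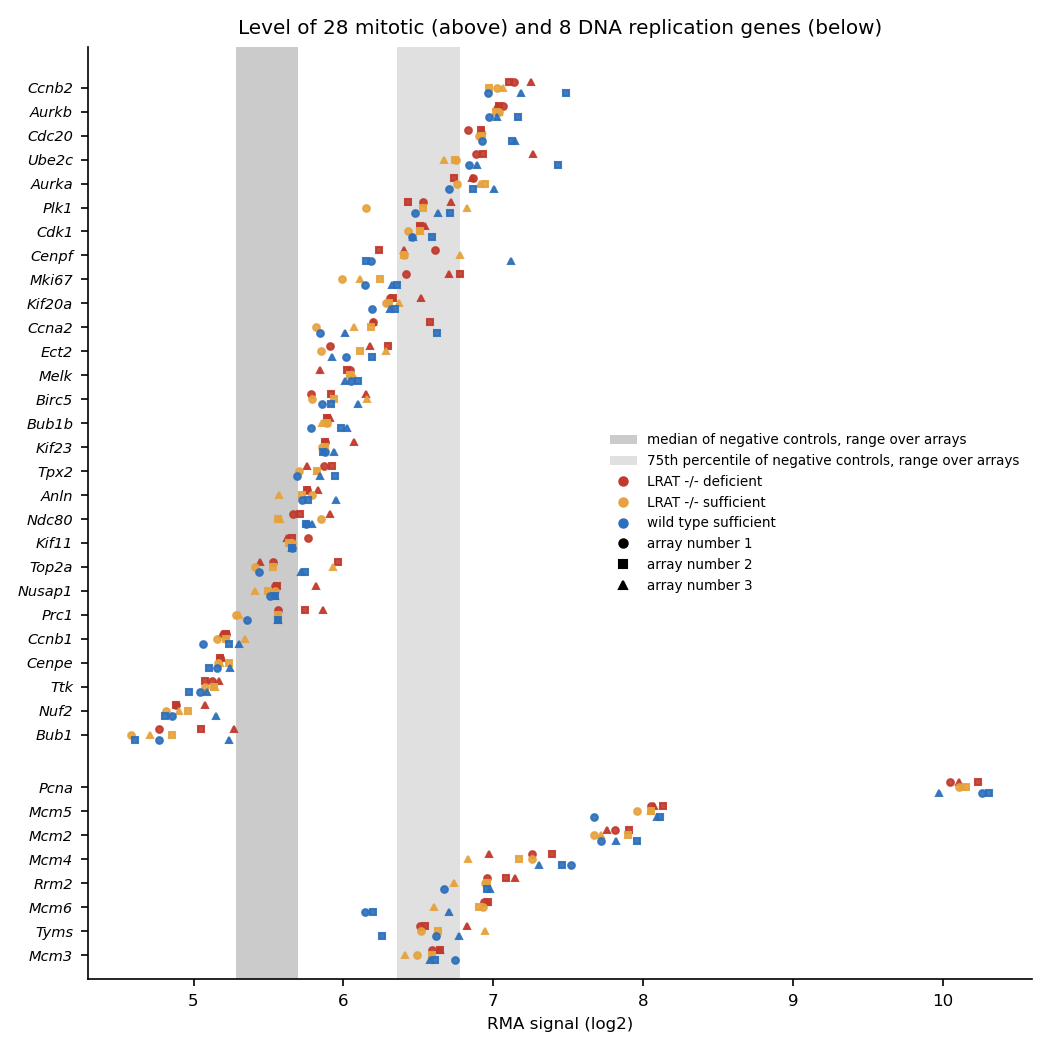
RMA signal (log2, x axis) of each gene in each of the 9 arrays, coloured by group and shaped by array number. Grey bands give the range over arrays of the median and 75th percentile of 5222 negative controls; 5 mitotic genes lie below the first band's upper edge in all arrays and Pcna lies far above both.

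Pcna gave log2 signals of 10.05, 10.23 and 10.10 in deficient arrays, 10.10, 10.15 and 10.13 in sufficient LRAT -/- arrays and 10.26, 10.31 and 9.97 in wild-type arrays. The groups overlapped, and the widest range was within wild type. Its second probe set gave differences within 0.01 of the first in all 3 comparisons, and Pcna has pseudogenes whose transcripts such probes could also read. Mcm5 and Mcm2, subunits of the MCM helicase, followed in level. Mcm5 had 8.05, 8.13 and 8.07 in deficient arrays, 7.96, 8.05 and 8.05 in sufficient LRAT -/- arrays and 7.67, 8.11 and 8.09 in wild-type arrays. Mcm2 had 7.81, 7.90 and 7.76 in deficient arrays, 7.67, 7.90 and 7.72 in sufficient LRAT -/- arrays and 7.72, 7.96 and 7.82 in wild-type arrays. Apart from the low Mcm5 value of wild-type array 1, both genes were level over the 9 arrays.

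Many mitotic genes had the same value in several arrays to 6 decimals. This held for 22 of 28 mitotic genes, 4 of 8 replication genes and 57.0% of all genes. Such ties were not limited to dim genes, as Mcm5 had the value 8.05 in 3 arrays. Kif11, the kinesin that separates spindle poles, had the value 5.66 in 6 of 9 arrays, and Kif23, a kinesin of the central spindle, 5.88 in 5. Cdk1, Bub1b, Prc1 and Nusap1 each shared 1 value in 4 arrays. For such genes a small SD does not show a precise measurement.

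The diet comparison set deficient arrays against sufficient LRAT -/- arrays and asked what the lack of dietary vitamin A changed. Mitotic genes tended to be higher on the deficient diet, by little: 21 of 28 had a positive difference, with a median of 0.05 on the log2 scale, and 6 of 8 replication genes, with a median of 0.09. Within the arrays numbered 1, 2 and 3 the mitotic count was 21, 15 and 16 of 28, and 7 were higher in all 3 numbers. The others were not all lower, because tied values gave differences of 0. These were Bub1b, Nusap1 and Melk in number 1 and Ccnb1, Cdk1, Bub1b and Kif23 in number 2. Among the 5 mitotic genes with a mean log2 signal of at least 6.57, however, 3 were higher, with a median of 0.01. With 1 array left out the mitotic median ran from 0.02, without deficient array 3 or sufficient LRAT -/- array 1, to 0.08, without deficient array 1. Over all genes 45.2% were higher and the median was -0.01. No member passed limma's test with an adjusted p under 0.05 (0 of 22061 genes called, or 0%, also 0 under each alternative tried except array weights, with 2). At an unadjusted p under 0.05 there were 2 members, Mki67 and Prc1, both higher, where 1.31% of all genes passed in either direction and 0.444% as higher. That 1.31% is less than a threshold of 0.05 would give with no gene differing. With the array number as a block in limma, 4 members and 533 of all genes passed in either direction.

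Mki67, which codes for the coat protein of mitotic chromosomes used to mark dividing cells, showed the widest difference. It had 6.42, 6.78 and 6.71 log2 in deficient arrays, 5.99, 6.24 and 6.11 in sufficient LRAT -/- arrays and 6.14, 6.35 and 6.32 in wild-type arrays. Every deficient array lay above all 6 others. The difference between the diets was 0.52 (SE 0.11, 95% interval 0.27 to 0.77, 1.43-fold). Its unadjusted limma p of 0.00114 was the fourth lowest of all genes, with limma's adjusted p = 1. This rank is no support on its own, since the genes were listed with earlier results of these data known. The difference ran from 0.45 to 0.63 with any 1 array left out and was 0.43, 0.53 and 0.60 within the arrays numbered 1, 2 and 3. The lowest value under any alternative setting was 0.35. Mki67 exceeded the median of the negative controls in all 9 arrays but their 75th percentile in only 2. Its mean log2 signal of 6.34 lies under the 6.57 used to remove dim genes. The authors' deposited table gave a ratio of 1.42 and a p of 0.0465 for Mki67. That table gave lower p-values for Bub1 (ratio 1.29, p of 0.0121) and for Melk, which was lower on the deficient diet (ratio 0.942, p of 0.0243). The limma difference for Melk was -0.08.

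Prc1, which bundles microtubules of the central spindle, had 5.56, 5.74 and 5.87 in deficient arrays against 5.28, 5.56 and 5.31 in sufficient LRAT -/- arrays. One sufficient array equalled the lowest deficient one, so the groups touched. The difference was 0.34 (SE 0.11, 1.27-fold, limma's adjusted p = 1), and 0.16 with array weights. For Prc1 the authors' deposited table gave a ratio of 1.34 with a p of 0.0610. Prc1 exceeded the median of the negative controls in only 3 of 9 arrays. Ube2c, the ubiquitin-conjugating enzyme that works with the anaphase-promoting complex, had 6.89, 6.93 and 7.26 in deficient arrays against 6.75, 6.75 and 6.67 in sufficient LRAT -/- arrays. These groups did not overlap, but wild-type array 2 was higher than all of them at 7.43. The Ube2c difference was 0.30 (95% interval -0.05 to 0.66). It was 0.19 without deficient array 3, 0.16 in the arrays numbered 1 and 2 alone and 0.18 with array weights, and the authors' deposited table gave a ratio of 1.08, with a p of 0.598.

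Bub1, a kinase of the spindle checkpoint, had 4.77, 5.05 and 5.27 in deficient arrays against 4.58, 4.85 and 4.71 in sufficient LRAT -/- arrays, all below the median of the negative controls. Its wild-type arrays, also below that median, had 4.77, 4.61 and 5.23, and wild-type array 3 lay above deficient arrays 1 and 2. The Bub1 difference was 0.32, but 0.20 without deficient array 3 and 0.10 with array weights. Nusap1, a microtubule-binding protein of the spindle, had 5.54, 5.56 and 5.82 in deficient arrays against 5.54, 5.50 and 5.41 in sufficient LRAT -/- arrays. Its wild-type arrays had 5.51, 5.54 and 5.54. The Nusap1 difference of 0.16 came mostly from the arrays numbered 3, where it was 0.41, against 0.00 and 0.06 in numbers 1 and 2. For 5 members the deficient arrays lay wholly above the sufficient ones, where 1.96% of all genes did: Mki67, Ube2c, Ccna2, Ccnb2 and Mcm6. No member lay wholly below, where 3.26% of all genes did. Ccna2, the A-type cyclin of S phase and mitosis, differed by 0.30 and Ccnb2 by 0.15, while their wild-type arrays spanned 5.85 to 6.63 and 6.97 to 7.48, across both diets.

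Other well-known members showed small differences between the diets. These were 0.02 for Top2a, the topoisomerase that untangles chromosomes, 0.04 for Cdk1, 0.01 for Aurkb, -0.05 for Aurka, 0.06 for Plk1, the Polo-like kinase, and -0.01 for Birc5, the survivin subunit of the passenger complex. The 95% interval was -0.11 to 0.19 for Cdk1 and -0.36 to 0.41 for Top2a. Among replication genes Rrm2, the regulated subunit of ribonucleotide reductase, had 6.95, 7.08 and 7.15 in deficient arrays against 6.94, 6.95 and 6.74 in sufficient LRAT -/- arrays, a difference of 0.18 (95% interval -0.05 to 0.42). Mcm3 had 6.59, 6.64 and 6.64 in deficient arrays against 6.49, 6.59 and 6.41 in sufficient LRAT -/- arrays, a difference of 0.13. Tyms, thymidylate synthase, differed by -0.07. The median half-width of the 95% interval over the 36 members was 0.22, before adjustment over all genes. The adjusted test could miss larger changes, since Mki67 with 0.52 was not called.

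**Figure D3:**
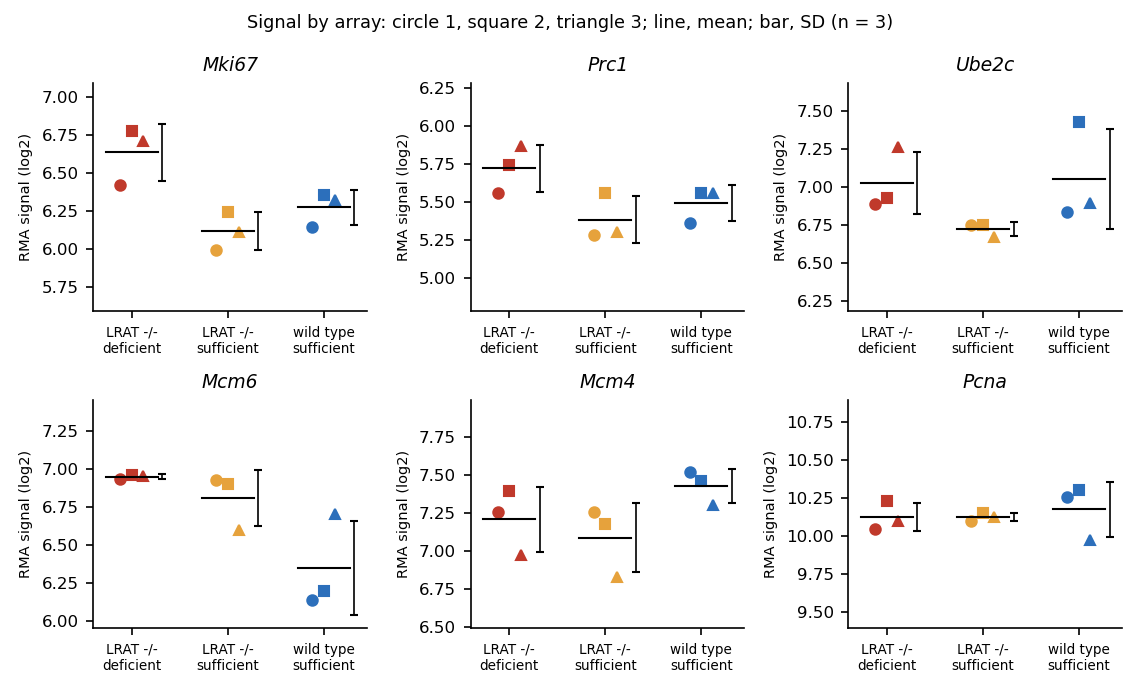
RMA signal (log2, y axis, 1.5 units in each panel) of 6 genes by array, with group means (lines) and SD (bars, n = 3). The 3 deficient arrays lie above all others for Mki67, and the wild-type arrays numbered 1 and 2 lie lowest for Mcm6.

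The genotype comparison set sufficient LRAT -/- arrays against wild-type arrays and asked what differs when vitamin A is supplied. Mitotic genes leaned the other way here, with 8 of 28 higher and a median of -0.03. That count was 3 without wild-type array 1 or without sufficient LRAT -/- array 3, and 12 without sufficient LRAT -/- array 1. The median was -0.10 without wild-type array 1, -0.06 without sufficient LRAT -/- array 3 and -0.01 without sufficient LRAT -/- array 1. The replication genes split, with 4 of 8 higher and a median of -0.02, while 51.0% of all genes were higher with a median of 0.00. This comparison uses the same 3 sufficient LRAT -/- arrays as the diet comparison, with the opposite sign, so the directions of the mitotic genes in the 2 comparisons are not independent. No member was among the 8 genes called by limma (0.0363% of genes). At an unadjusted p under 0.05 there were 2 members, Mcm6 and Mcm4, where 5.72% of all genes passed.

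Mcm6 and Mcm4 are partners in the same helicase and differed in opposite directions. Mcm6 had 6.93, 6.90 and 6.60 in sufficient LRAT -/- arrays against 6.14, 6.20 and 6.71 in wild-type arrays. The groups overlapped through the arrays numbered 3. The difference was 0.46 (SE 0.15, 1.38-fold, limma's adjusted p = 0.667). Within the numbers 1, 2 and 3 it was 0.79, 0.70 and -0.10, so it was present in numbers 1 and 2 only. Mcm4 had 7.25, 7.39 and 6.97 in deficient arrays. It had 7.25, 7.17 and 6.83 in sufficient LRAT -/- arrays against 7.52, 7.46 and 7.30 in wild-type arrays, with no overlap between these 2 groups. Its difference was -0.34 (SE 0.14, 0.790-fold, limma's adjusted p = 0.836), and it was negative within each number. Without sufficient LRAT -/- array 3 it was -0.21. The authors' deposited table gave a ratio of 0.754 with a p of 0.00383 for Mcm4 and of 1.44 with a p of 0.0313 for Mcm6. For Cdk1 it gave 0.837 with a p of 0.0404, where the limma difference was -0.02.

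Mcm4 and Ube2c were the members whose sufficient LRAT -/- arrays lay wholly below wild type, where 4.03% of all genes did, and none lay wholly above, where 3.67% did. For Ube2c, with 6.83, 7.43 and 6.89 in wild-type arrays, the difference was -0.33 and rested largely on wild-type array 2. Without that array it was -0.14. The Mcm3 difference was -0.15, with 6.74, 6.61 and 6.58 in wild-type arrays. Cdc20 had 6.91, 6.92 and 6.92 in sufficient LRAT -/- arrays against 6.92, 7.12 and 7.14 in wild-type arrays, a difference of -0.14. None of these passed the test (lowest adjusted p of limma over the mitotic genes, 0.900).

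The combined comparison set deficient arrays against wild-type arrays. Here 16 of 28 mitotic genes and 4 of 8 replication genes were higher, with medians of 0.01 and 0.04, where 45.7% of all genes were higher. The mitotic median was -0.04 without wild-type array 1 and 0.05 without wild-type array 3, so its sign rested on 1 array. No member was among the 15 genes called (0.068% of genes). At an unadjusted p under 0.05 were Mcm6, Mki67 and Cdc20, where 6.09% of all genes passed. Mcm6 and Mki67 were also the members whose deficient arrays lay wholly above wild type, where 3.28% of all genes did, and none lay wholly below, where 4.88% did.

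Mcm6 had 6.94, 6.97 and 6.96 in deficient arrays, a spread of 0.02 (SD, n = 3), against 6.35 ± 0.31 in wild type (SD, n = 3). The difference was 0.60 (95% interval 0.27 to 0.94, 1.52-fold, limma's adjusted p = 0.385). It was 0.79 and 0.77 within numbers 1 and 2 and 0.25 within number 3. Without wild-type array 3 it was 0.78 and passed the threshold, with limma's adjusted p = 0.0486, the one setting of those tried in which a member was called. The authors' deposited table gave a ratio of 1.53 with a p of 0.0180 for Mcm6. It also gave 0.917 with a p of 0.00557 for Melk and 0.857 with a p of 0.0394 for Mcm4, both lower in deficient arrays. The limma differences for these were -0.08 and -0.22.

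Mki67 differed from wild type by 0.36 (SE 0.11, 1.28-fold, limma's adjusted p = 0.570) and was higher in each number. Cdc20 had 6.83, 6.91 and 6.92 in deficient arrays, a difference of -0.17 (0.887-fold, limma's adjusted p = 0.819). The authors' deposited table gave a ratio of 1.23 with a p of 0.185 for Mki67 and of 0.926 with a p of 0.174 for Cdc20. Prc1 differed by 0.23, with 5.36, 5.56 and 5.56 in wild-type arrays, and by 0.14 with array weights. Rrm2 differed by 0.19, with 6.67, 6.95 and 6.98 in wild-type arrays, and by 0.09 without wild-type array 1. A moderated F test over the 3 groups called 9 genes (0.0408%) and no member, with the lowest unadjusted p among the members at 0.00330 for Mki67 and 0.00640 for Mcm6.

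**Figure D4:**
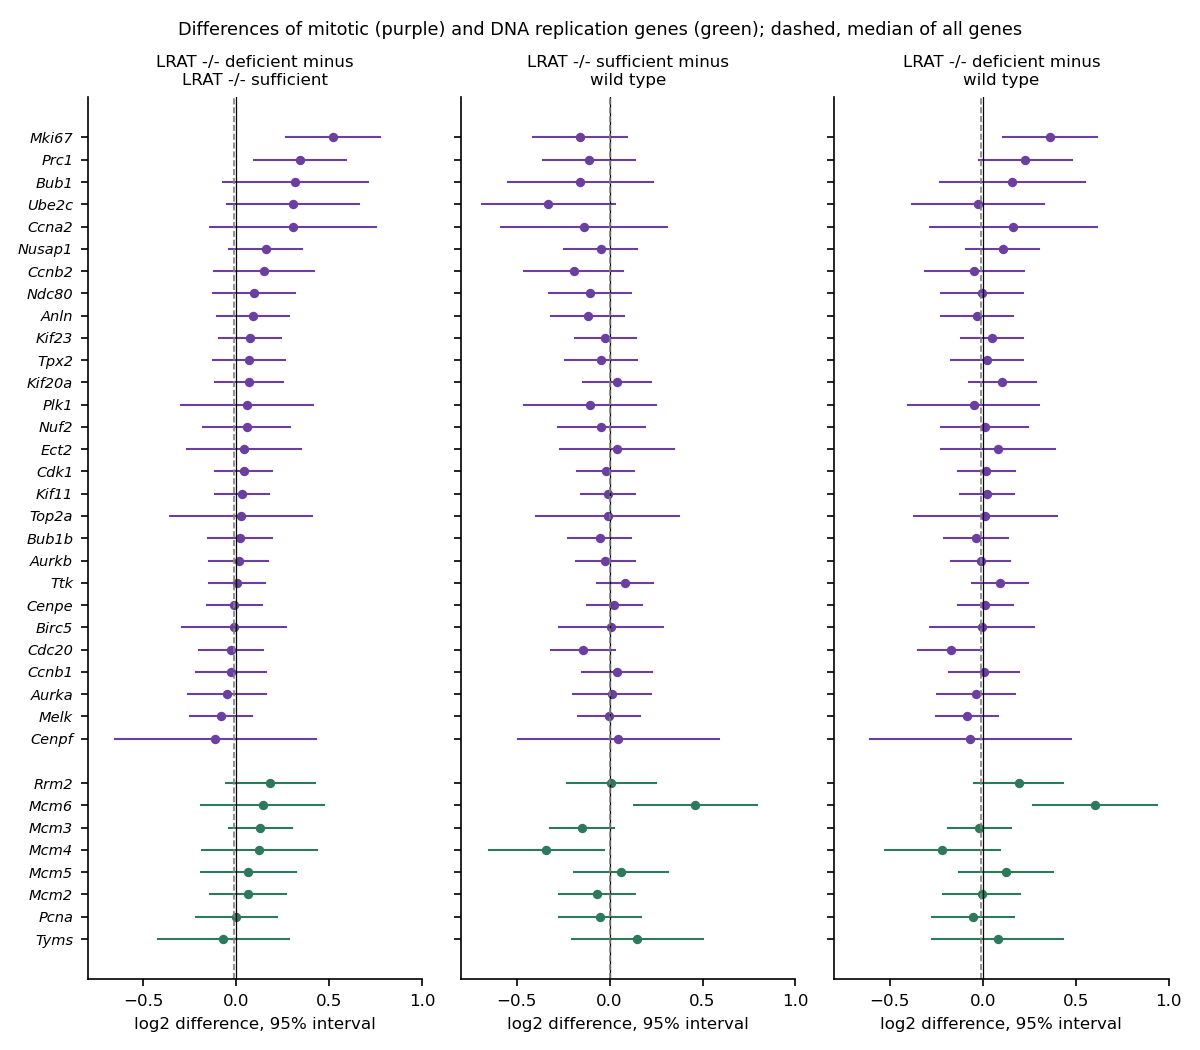
Log2 difference (points) with limma's 95% interval (lines) for each gene in the 3 comparisons, mitotic genes in purple and replication genes in green, with the median of all genes dashed. Intervals exclude 0 for Mki67 and Prc1 in the diet comparison, for Mcm6 and Mcm4 in the genotype comparison and for Mcm6, Mki67 and Cdc20 in the combined comparison, before adjustment over all genes.

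Variation among the mitotic genes was partly shared between arrays. The mean deviation of the 28 genes from their own 9-array means was -0.01, 0.04 and 0.09 log2 in deficient arrays, -0.11, -0.03 and -0.00 in sufficient LRAT -/- arrays and -0.10, 0.05 and 0.07 in wild-type arrays. The array numbered 1 was the lowest of its group each time, and the groups overlapped. Sufficient LRAT -/- array 1 held the lowest value of 9 mitotic genes and wild-type array 1 that of 7. Of the highest values, 7 each fell in deficient array 3, wild-type array 2 and wild-type array 3. The group means of this deviation were 0.04 ± 0.05 in deficient, -0.05 ± 0.06 in sufficient LRAT -/- and 0.01 ± 0.10 in wild-type arrays (SD, n = 3 each). Within the numbers 1, 2 and 3, deficient minus sufficient LRAT -/- was 0.10, 0.07 and 0.09, deficient minus wild type was 0.09, -0.01 and 0.02, and sufficient LRAT -/- minus wild type was -0.01, -0.08 and -0.08.

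After group means were removed, the median r over the 378 pairs of mitotic genes was 0.29 across the 9 arrays, against 0.01 over all pairs of genes. It was 0.04 over the 28 pairs of replication genes and 0.06 over the pairs of a mitotic with a replication gene. Without the arrays numbered 3 it was 0.31 for the mitotic genes, 0.26 for the replication genes and 0.02 for all genes. These arrays share groups, processing and the structure of the numbers, so the values describe these arrays alone.

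**Figure D5:**
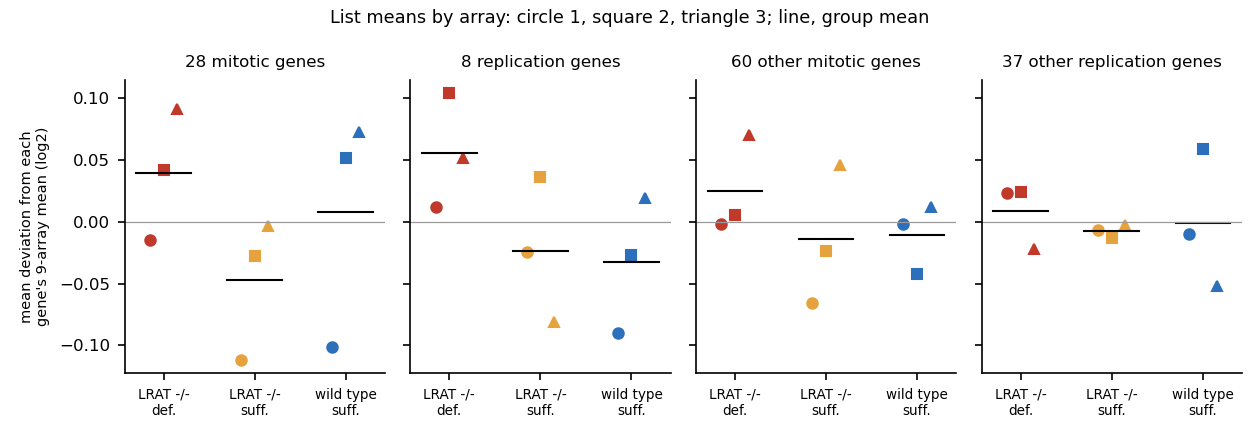
Mean deviation of each gene list from its genes' 9-array means (log2, y axis) in each array, with group means as lines. For the 28 mitotic genes the array numbered 1 is lowest in every group, and the groups overlap in all 4 lists.

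The wider pathway was read from lists of further cell cycle genes. Of 60 other mitotic genes 37 were higher in the diet comparison (median 0.02), where 45.2% of all genes were higher. Pttg1 and Cks1b passed an unadjusted p under 0.05 by limma as higher, and 0 passed as lower. Over all genes 0.444% passed as higher and 1.31% in either direction. No gene of the lists of further cell cycle genes passed limma's adjusted test in any comparison. Of 37 other replication genes 23 were higher (median 0.03). The G1 cyclins and kinases (5 of 11 higher), the cell cycle transcription factors (11 of 21) and the inhibitors (8 of 19) had medians between -0.01 and 0.00. In the genotype comparison 28 of 60 other mitotic genes and 19 of 37 other replication genes were higher, against 51.0% of all genes.

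Among the mitotic genes outside the 36, Pttg1, the securin that restrains separase, had 8.76, 9.11 and 9.98 in deficient arrays, 7.10, 7.20 and 9.12 in sufficient LRAT -/- arrays and 9.22, 7.41 and 7.15 in wild-type arrays. Its values fell into a low set from 7.10 to 7.41 and a high set from 8.76 upward, and arrays of both labels on the sufficient diet were in each. The diet difference of 1.47 was not past the threshold (limma's adjusted p = 1). Cks1b, a small subunit of Cdk complexes, had 7.52, 7.61 and 7.64 in deficient arrays, 7.22, 7.59 and 7.06 in sufficient LRAT -/- arrays and 7.84, 7.81 and 7.59 in wild-type arrays. The sufficient LRAT -/- arrays were the lowest group, with a genotype difference of -0.45 (limma's adjusted p = 0.592).

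Among genes that control entry into the cycle, Ccnd1, the D-type cyclin that opens G1, had 10.44, 10.65 and 10.58 in deficient arrays, 10.52, 10.44 and 10.54 in sufficient LRAT -/- arrays and 9.95, 10.44 and 10.06 in wild-type arrays. Wild-type array 2 reached the level of the arrays labelled LRAT -/- and the other wild-type arrays lay below it, with a genotype difference of 0.35 and a combined one of 0.41 (limma's adjusted p = 0.744 and 0.561). Ccng2, an atypical cyclin linked to cell cycle arrest, had 8.26, 8.29 and 8.08 in deficient arrays, 8.24, 8.06 and 7.87 in sufficient LRAT -/- arrays and 8.73, 8.47 and 8.53 in wild-type arrays. Wild type lay wholly above, and the genotype difference was -0.52 (limma's adjusted p = 0.319). Cdkn1b, the inhibitor p27, differed by -0.22 and Btg2, an antiproliferative immediate early gene, by -0.43 in the same comparison, neither past the threshold. These genes are named for their low unadjusted p and do not stand for their lists. In the genotype comparison 8 of 19 inhibitors were higher, with a median of -0.03 and a range from -0.52 to 0.48, the highest being Wee1. The G1 cyclins and kinases had 7 of 11 higher, with a median of 0.04, where 51.0% of all genes were higher.

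Markers of cell types that could bring dividing cells were set beside these values. In the diet comparison 7 of 9 endothelial markers were higher, with a summed linear signal of 10642 to 11574 in deficient arrays against 9992 to 10807 in sufficient LRAT -/- arrays. The 9 cardiomyocyte markers gave the same count, 7 higher, with a median of 0.06 against 0.05 for the endothelial markers. Of all genes 45.2% were higher. Macrophage markers were higher in 5 of 9, with sums of 3458 to 3498 in deficient arrays against 3319 to 3831 in sufficient LRAT -/- arrays, and 3516 to 4775 in wild type. Lymphocyte markers were higher in 4 of 9 and thymocyte markers in 1 of 5, and Cd3g, Ms4a1 and Rag2 were below the median of the negative controls in every array. Markers of bone marrow granulocyte precursors were higher in 4 of 8 (sums of 554 to 622 in deficient arrays against 575 to 616 in sufficient LRAT -/- arrays), with Ngp below background in every array. Fibroblast markers were higher in 5 of 7 in the diet comparison. In the genotype comparison, where 8 of 28 mitotic genes were higher, 1 of 9 endothelial, 1 of 9 macrophage, 0 of 7 fibroblast and 3 of 9 lymphocyte markers were higher. Other lists did not share this direction there: 3 of 5 thymocyte, 4 of 8 granulocyte precursor and 6 of 7 smooth muscle and pericyte markers were higher. Of cardiomyocyte markers 5 of 9 were higher, and of all genes 51.0%. Mesothelial markers were higher in 0 of 4 in both comparisons, with sums of 536 to 722 in deficient, 759 to 780 in sufficient LRAT -/- and 836 to 1562 in wild-type arrays. Smooth muscle and pericyte markers were higher in 3 of 7 in the diet comparison, with sums of 9930 to 11162 in deficient arrays against 12406 to 18537 in sufficient LRAT -/- arrays. The part of these cells in the values of the cell cycle genes was not tested.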

How the data were processed

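The authors deposited log2 signals of each probe set. The processing notes of the submitters list R 3.1.2, RMA (which subtracts background, equalizes the arrays' distributions and summarizes probes) and build mm8. Ratios and p-values named as the authors' come from their deposited table, whose fit was, per the file headers, an analysis of variance that also held the scan date. Another deposited table gave gene symbols; its 9 signal columns match no sample label and were not used. Of 35556 probe sets, 6546 are controls, 3543 have no symbol and 2 several. Symbols were updated through RefSeq (GRCm38.p6), used for names and promoters only: accessions matched 22115 probe sets, symbols 1815 and synonyms 625, while 910 keep the name in the file. Background is the median of the 5222 probe sets annotated as negative controls.

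Differences were fitted for all 22061 genes and 9 arrays with limma 3.58.1 in R 4.3.3 (group means, 6 residual and 3.34 prior degrees of freedom, Benjamini-Hochberg adjustment over all genes, threshold 0.05), and the fit was tested on simulated data. The members and lists were chosen with earlier results of these data known. Values are given in full for the 5 members with the lowest unadjusted p in each comparison and the 4 brightest and 2 dimmest, and for some other genes. With 9 arrays the number of arrays limits the precision. Ccnb1, Top2a, Anln and Pcna have more than 1 probe set. The authors' deposited table names the Ccnb1 probe sets Gm5593 and the kept Anln probe set 9530077C05Rik, so both genes are uncertain.

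The numbers 1 to 3 in the titles pair the arrays: with group means removed, all 9 same-number pairs of arrays correlated across genes at r = 0.138 to 0.391, against -0.365 to 0.223 for other pairs. No label says what a number shares. Figures were drawn with matplotlib 3.10.9.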

Additional observations from a re-analysis of the deposited data

How the results depend on the processing

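No member was called in any comparison under 19 alternative settings, except Mcm6 in the combined comparison without wild-type array 3 (0.78, limma's adjusted p = 0.0486). All 15 differences of named members kept their direction where the gene was tested, though sizes moved, to 0.16 for Prc1 and 0.10 for Bub1 in the diet comparison with array weights. The genes called over the whole array moved more. In the diet comparison 0 were called, and 2 with array weights. In the genotype comparison 8 were called, 15 with all probe sets tested one by one, 2 with only the groups compared, 2 in the arrays numbered 1 and 2 alone, and 7 to 27 with 1 array left out (27 without wild-type array 1, 17 without wild-type array 3). In the combined comparison 15 were called, 32 with array weights, 9 with only the groups compared, 3 in the arrays numbered 1 and 2 alone, and 7 to 32 with 1 array left out (32 without wild-type array 3, 7 without deficient array 1 or 2). The main fit has no term for the numbers, so differences between them count as spread among the arrays of a group. With the replicate number as a block, which the pairing of the numbers allows, 0, 10 and 20 genes were called in the diet, genotype and combined comparisons, and no member. At an unadjusted p under 0.05 in that limma fit, 4, 2 and 5 members passed, among 533, 1846 and 1884 of all 22061 genes.

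The median difference of the mitotic genes, with 1 array left out, ran from 0.02 to 0.08, -0.10 to -0.01 and -0.04 to 0.05 in the diet, genotype and combined comparisons. The median of the replication genes lay between 0.035 and 0.148 in the diet comparison and between -0.0862 and 0.0073 in the genotype comparison with 1 array left out, and was 0.0383 in the genotype comparison with array weights. With dim genes removed (mean log2 under 6.57), only 5 mitotic genes stayed: 3, 1 and 0 of them were higher in the diet, genotype and combined comparisons, with medians of 0.01, -0.14 and -0.04. The number of mitotic genes higher in the diet comparison, an alternative chosen after seeing the data, was 21 of 28, 17 without sufficient LRAT -/- array 1, 24 without sufficient LRAT -/- array 3 and 19 in the arrays numbered 1 and 2 alone. In the genotype comparison it was 8, 3 without wild-type array 1 or sufficient LRAT -/- array 3, and 12 without sufficient LRAT -/- array 1; in the combined comparison it ran from 11 to 21. Signals near background limit what these arrays can show for most mitotic genes.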
